A study of Mus musculus with 53 samples.

Results

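Immunoglobulin genes were examined in 53 sciatic nerve transcriptomes of mice. The files list 49568 genes, and 378 of them carry the symbol of an immunoglobulin constant, variable or diversity segment (Ighg, Ighm, Igha, Ighd, Ighv, Igkv, Igkc, Iglv or Iglc). Members were selected on their level, as a mean log2 value over all 53 samples at or over 3.32 (a linear value of 10), leaving out values above 22. This rule left 6 genes: Ighm, Igkc, Ighg2b, Ighd, Igkv4-91 and Igha. The remaining 372 immunoglobulin genes lay below the level, and only 29 of the 378 reached it in any sample. The mean levels chose the members and are therefore given as a description, whereas differences between groups were not used in the choice.

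All mice were male C57BL/6J. At 16 weeks of age, the samples were 5 of standard diet (SD), 7 of high-fat diet (HFD) and 5 of HFD with streptozotocin (HFD-STZ). At 24 weeks, 8 samples came from SD, 7 from HFD and 8 from HFD-STZ mice. A further 7 HFD-DR and 6 HFD-STZ-DR samples came from mice in dietary reversal (DR), which ate SD again for 8 weeks from week 16. HFD began at 5 weeks of age, and streptozotocin, which destroys insulin-producing beta cells, was injected at 12 weeks, first at 75 and then at 50 mg/kg. SD mice serve as controls, HFD is the prediabetes model and HFD-STZ the type 2 diabetes model. The nerve was sequenced whole, so the RNA of every cell type in it enters each value.

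An antibody is built of heavy and light chains, each with a variable part that binds antigen and a constant part that sets its class. B cells carry IgM and IgD on their surface, and plasma cells, their secreting descendants, fill with antibody RNA. Each B cell clone uses its own choice of variable genes, so a few expanded clones in a tissue appear as a few strongly expressed variable genes. The J chain, encoded by Jchain, links secreted IgM and IgA into larger complexes and is made by plasma cells, which are rare in healthy nerve.

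The genes lie in the heavy chain and kappa loci of GRCm38. Ighm (chr12:113418558-113422730), Ighd (chr12:113406604-113416324), Ighg2b (chr12:113302965-113307933) and Igha (chr12:113254830-113260236) are constant genes of the minus strand on chromosome 12. Igkc (chr6:70726435-70726966, plus strand), a single exon of 532 bases, is the kappa constant gene and overlaps the annotated gene Gm30211. The libraries were not stranded, so reads of this pair cannot be told apart. Igkv4-91 (chr6:68768555-68769103, minus strand), with 2 exons, was the only variable gene among the members. The first 300 bases of its second exon (chr6:68768564-68768863, GENCODE M21) are shown because variable genes resemble each other and this gene held 1 of the values set aside below. Capitals mark bases outside every stretch of 25 bases shared with a transcript of another gene.

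Igkv4-91: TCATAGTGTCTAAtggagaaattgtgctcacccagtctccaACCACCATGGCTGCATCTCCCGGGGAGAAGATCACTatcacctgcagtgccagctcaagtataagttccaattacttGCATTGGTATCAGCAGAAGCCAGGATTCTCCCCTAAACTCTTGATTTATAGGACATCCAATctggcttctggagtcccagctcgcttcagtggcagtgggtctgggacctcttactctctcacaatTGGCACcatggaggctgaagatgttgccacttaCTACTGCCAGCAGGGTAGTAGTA

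In this sequence 139 bases, or 46.3%, were in capitals. The nearest of 186 transcripts of other kappa variable genes over its first 270 bases was that of Igkv4-60, at 89.6% identity, followed by Igkv4-79 at 88.5%. No stretch of 100 bases of any member's longest transcript occurred in another gene.

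Values ran from -2.39 to 20.96 on the deposited log2 scale, apart from values above 22 that 25 genes had in a single sample. Of these genes, 23 had it in HFD-STZ replicate 7 at 24 weeks. The other 2 were members: in HFD replicate 1 at 24 weeks, Ighg2b was listed at 55.71 and Igkv4-91 at 51.78, both far above 20.96. Neither gene entered the tests unless stated otherwise, and results for the remaining members are given with and without these libraries where that moved them by over 1.5 times. Correlations between samples ran from 0.916 to 0.994, and 0 pairs were identical. Read depth per value is unknown, so the spread between samples is the only error available.

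The genes were checked against markers of the cells that make antibody. Of 19 plasma cell markers, 17 reached the level of 3.32, but the plasma cell factor Mzb1 (mean 2.88) and the B cell coactivator Pou2af1 (mean 2.94) did not. Of 12 B cell markers, 9 reached it, and among those below it, the B cell factor Pax5 and the homing receptor Cxcr5 had means of 2.92 and 2.47. Several plasma cell markers that did reach the level, such as Xbp1 (mean 13.49) and Txndc5 (mean 13.45), serve protein folding in many cell types. In whole tissue, more cells of a type and more RNA per cell cannot be told apart.

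Igkc followed the plasma cell gene Jchain more closely than any other gene. Among 18069 genes, Jchain had the highest correlation with Igkc over the 53 samples (r = 0.91), and the next, Plin2, reached 0.67. Within groups, that is, after each group's mean was removed, the correlation with Jchain was 0.90, and it was 0.88 over all samples without the 2 that lay farthest on the Jchain axis. Of the 8 samples highest in Igkc, 7 were also among the 8 highest in Jchain. Points share their library, and r is a description.

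For Ighm, Jchain was not among the nearest genes. These were looked up beyond the naming rule, which covers Igkc only. The gene most like Ighm was Lpgat1, an acyltransferase of lipid metabolism (r = 0.89, 0.83 within groups), followed by Ubd (r = 0.85) and Mmd (r = 0.85). Plin2, a lipid droplet coat protein, and Dgat2, which makes triglycerides, were also among its 10 nearest genes (r = 0.85 and 0.84). Jchain ranked only 371st for Ighm, with r = 0.68. The mean of 6 adipocyte markers (Adipoq, Plin1, Plin4, Cidec, Lep and Cfd) correlated with Ighm at 0.72 and with Igkc at 0.54. The mean of the plasma cell markers, Jchain among them, correlated with Ighm at 0.74 and with Igkc at 0.78. The mean of 6 Schwann cell markers correlated with Ighm at -0.61, and that of 6 macrophage markers at 0.61. HFD replicate 6 at 24 weeks had the second highest Ighm value, 12.93, with Igkc at 5.89 and Jchain at 4.48. Single plasma cell markers ranged from -0.43 (Creld2) to 0.68 (Jchain) with Ighm, and from -0.26 (Creld2) to 0.91 (Jchain) with Igkc. Single adipocyte markers ranged from 0.21 (Cfd) to 0.79 (Lep) with Ighm. Ighm thus moved with the means of the plasma cell and adipocyte lists, but not with every plasma cell marker. What part either cell type had in it was not tested, and the genes are named here by symbol rather than as plasma cell genes.

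**Figure D1:**
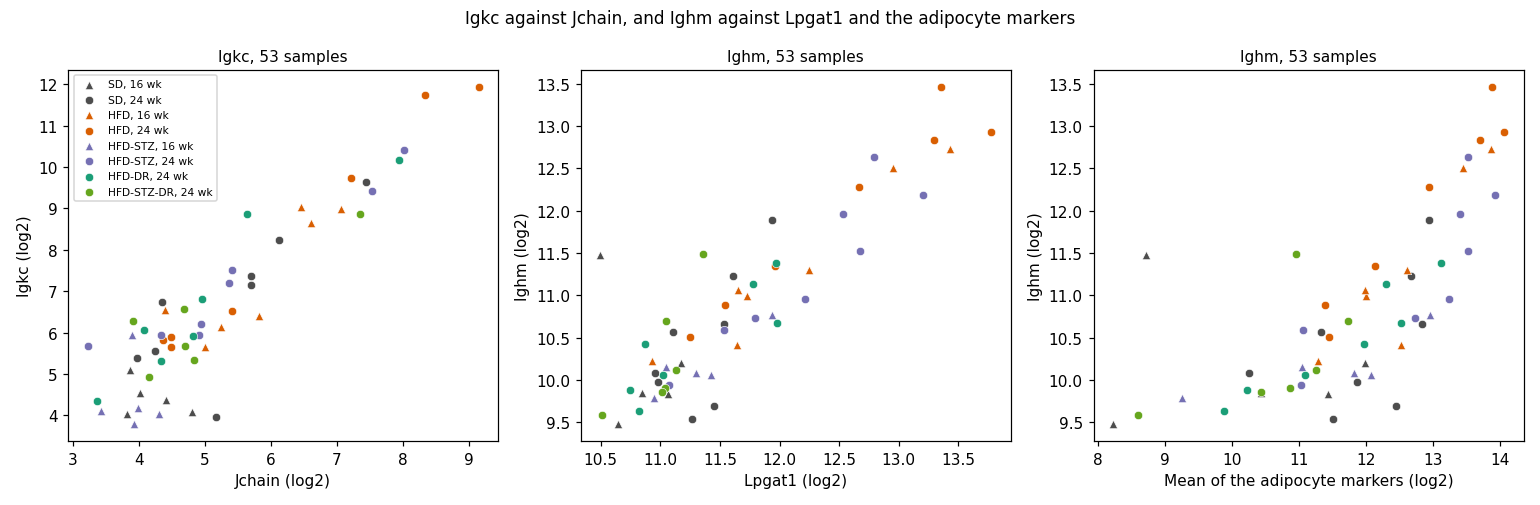
Igkc against Jchain (left), Ighm against Lpgat1 (middle) and Ighm against the mean of 6 adipocyte markers (right), all log2 values, 1 point per sample, coloured by diet, with triangles for 16 weeks and circles for 24 weeks. Igkc rises with Jchain (r = 0.91), and Ighm rises with Lpgat1 (r = 0.89) and with the adipocyte markers (r = 0.72).

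Ighd and Igha had weaker neighbours. Ighd, the IgD chain of naive B cells, was most like Ifitm6 (r = 0.69) and correlated with the B cell receptor subunit Cd79a at 0.54 and with Jchain at 0.36. Igha, the IgA chain, was most like Tcaim (r = 0.56) and correlated with Jchain at 0.45. Ighm and Ighd are transcribed together in naive B cells, and their correlation here was 0.27, or 0.02 within groups.

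Per kilobase of exon, Ighm had the highest mean level, at 9.92 on the log2 scale, followed by Igkc at 7.52 and Igkv4-91 at 6.21. Ighg2b reached 4.44, Ighd 4.08 and Igha 1.98 per kilobase. Whether the deposited values were already scaled by gene length is not given in the sources used here. If they were, this step divides by length again, and the order per kilobase does not hold as an order of levels. Without length, the lowest members were Ighd (5.00), Igkv4-91 (4.73) and Igha (3.39), and the highest genes just outside the rule were Ighg2c (3.11), Iglc2 (2.53) and Iglc1 (2.48). Igha was under the level in 34 of the 53 samples and owed its place to a few high ones.

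The mu chain gene Ighm was present in every nerve, between 9.48 and 13.47. At 16 weeks, the 5 SD samples had values of 9.48, 9.83, 9.84, 10.20 and 11.48, and the 5 HFD-STZ samples 9.79, 10.06, 10.09, 10.16 and 10.77. The 7 HFD samples of that age ran from 10.22 to 12.73 (median 11.07). Most HFD samples were above most SD samples at 16 weeks, but the groups overlapped. In the older mice, SD ranged from 9.54 to 11.88 (median 10.32), HFD from 10.51 to 13.47 (median 12.28) and HFD-STZ from 9.94 to 12.63 (median 11.24). After DR, values ran from 9.63 to 11.38 (median 10.42) in HFD-DR and from 9.58 to 11.49 (median 10.01) in HFD-STZ-DR mice. The HFD group of 24 weeks held the 3 highest values of all samples, and every value of both reversal groups lay within the range of the SD samples of 24 weeks.

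In order of group means, Ighm was highest in HFD at 24 weeks (12.04 ± 1.13, SD, n = 7), then HFD at 16 weeks (11.32 ± 0.97, n = 7) and HFD-STZ at 24 weeks (11.32 ± 0.91, n = 8). A step of 0.86 separated these from HFD-DR (10.45 ± 0.65, n = 7), SD at 24 weeks (10.45 ± 0.80, n = 8), HFD-STZ-DR (10.27 ± 0.70, n = 6), HFD-STZ at 16 weeks (10.17 ± 0.36, n = 5) and SD at 16 weeks (10.17 ± 0.78, n = 5). Of the 7 steps between neighbours in this order, 6 were smaller than the SD of both groups.

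The kappa constant gene Igkc varied most among the constant genes tested, between 3.79 and 11.95. At 16 weeks, SD values were 4.02, 4.07, 4.36, 4.54 and 5.08 and HFD-STZ values 3.79, 4.04, 4.10, 4.19 and 5.95. The 7 HFD mice of the same age had 5.64 to 9.04 (median 6.54). All 7 HFD samples were thus above all SD samples, and only the highest HFD-STZ sample reached into the HFD range. At 24 weeks, SD samples ranged from 3.96 to 9.63 (median 6.94), HFD from 5.64 to 11.95 (median 6.52) and HFD-STZ from 5.68 to 10.43 (median 6.70). HFD-DR ranged from 4.35 to 10.16 (median 6.06) and HFD-STZ-DR from 4.93 to 8.86 (median 5.98). The 5 groups of 24 weeks overlapped widely, and in HFD mice 4 values lay between 5.64 and 6.52 and 3 between 9.74 and 11.95.

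**Figure D2:**
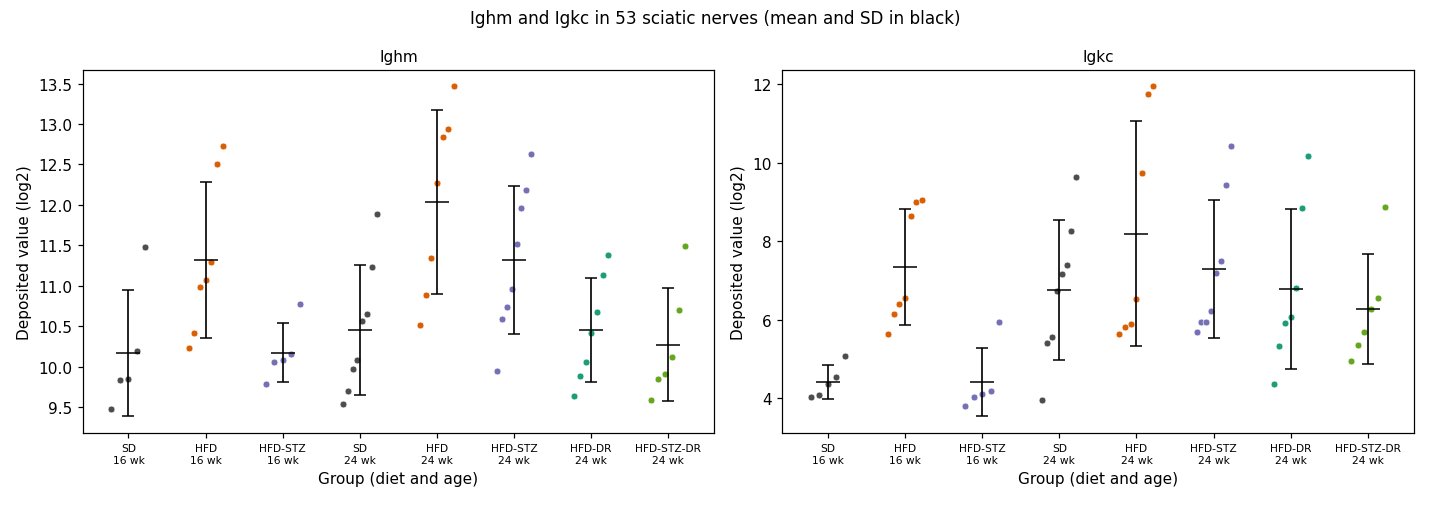
Deposited log2 values of Ighm (left) and Igkc (right) in each of the 53 samples by group, with the group mean and SD in black. Ighm was highest in HFD mice of 24 weeks (mean 12.04), and Igkc stayed under 6 in all SD and HFD-STZ mice of 16 weeks.

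Diet was compared first at 16 weeks, between HFD and SD mice, with limma fitted over all genes. None of the 3 members tested passed an adjusted p-value of 0.05, which 1 of 17962 genes did (0.00557%). All 3 had an unadjusted p-value under 0.05, as did 8.55% of all genes. Igkc was higher in HFD mice by 2.93 (SE 0.60, limma adjusted p = 0.24, 2-sided exact permutation p = 0.00505), and Jchain by 1.61 (SE 0.42, limma adjusted p = 0.36, exact permutation p = 0.0101). Igkc was the 1 member whose groups did not overlap, which held for 101 of 17962 genes (0.562%). Ighm was higher by 1.15 (SE 0.45, limma adjusted p = 0.55, exact permutation p = 0.0556) and Ighd by 0.96 (SE 0.38, limma adjusted p = 0.55).

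Markers of other tissues moved in the same comparison. The adipocyte mean was 12.53 in HFD and 10.16 in SD mice, with ranges of 11.28 to 13.86 and 8.22 to 11.99. The mean of 5 blood markers was 10.32 and 7.60, with ranges of 8.67 to 12.50 and 6.72 to 8.79. With the adipocyte mean as a covariate, the Igkc difference was 2.96 and the Ighm difference 0.60. With the blood mean as a covariate, Igkc differed by 2.36, Ighm by 2.02 and Ighd by 0.04.

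Streptozotocin was compared with HFD alone at the same age. Between HFD-STZ and HFD mice at 16 weeks, 0 of 3 members and 0 of 18202 genes passed (0%), and 2 members had an unadjusted p-value under 0.05, against 4.88% of all genes. Igkc was lower in HFD-STZ mice by 2.93 (SE 0.64, limma adjusted p = 0.99, exact permutation p = 0.00758), and Jchain by 1.89 (SE 0.40, limma adjusted p = 0.88, exact permutation p = 0.00379). Ighm was lower by 1.15 (SE 0.39, limma adjusted p = 0.99, exact permutation p = 0.0278). Blood and fat markers moved the same way, with lower means in HFD-STZ for 5 of 5 blood markers (list mean 8.80 against 10.32, ranges 7.57 to 10.29 and 8.67 to 12.50) and for 5 of 6 adipocyte markers (11.43 against 12.53). Skeletal muscle markers were lower as well, in 6 of 6 (8.06 against 9.55). With the adipocyte covariate Igkc differed by -3.32 and Ighm by -0.59, and with the blood covariate by -2.53 and -1.58, while the part of muscle was not tested. HFD-STZ was then set against SD at 16 weeks, where 0 of 3 members and 0 of 17879 genes passed (0%), and 0 members had an unadjusted p-value under 0.05, against 8.41% of all genes. Igkc means were 4.41 and 4.42 and Ighm means 10.17 and 10.17, with 95% intervals of the difference from -0.85 to 0.85 for Igkc and from -0.70 to 0.71 for Ighm.

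At 24 weeks, Ighm stood out among the members in the HFD comparison. HFD exceeded SD in Ighm by 1.58 (SE 0.45, limma adjusted p = 0.24, exact permutation p = 0.0101). None of 4 members passed, against 22 of 18191 genes (0.121%), and Ighm was the only member with an unadjusted p-value under 0.05, against 9.05% of all genes. Igkc differed by 1.43 (SE 1.09, limma adjusted p = 0.69, exact permutation p = 0.259), and Jchain by 0.87 (SE 0.75, limma adjusted p = 0.72). Without HFD replicate 1, the library with the values above 22, Igkc differed by 0.84 and Ighm by 1.45, and without HFD replicate 4, the sample highest in both genes, by 0.81 and 1.34. Leaving out single samples took the Jchain difference from 0.38, without HFD replicate 4, to 1.17. The adipocyte mean was 12.79 in HFD and 11.98 in SD mice (ranges 11.39 to 14.06 and 10.25 to 12.94). With it as a covariate, Ighm differed by 0.97 (limma unadjusted p = 0.0053, against 0.0028 without the covariate). Igkc then differed by 0.40 (limma unadjusted p = 0.69, against 0.21).

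In the diabetic model at 24 weeks, the means of Ighm and Igkc lay between those of SD and HFD mice. Ighm was higher in HFD-STZ mice by 0.86 (SE 0.39, limma adjusted p = 0.83, exact permutation p = 0.0662) and Igkc by 0.54 (SE 0.81, limma adjusted p = 0.90). The Igkc difference was 0.09 without HFD-STZ replicate 2 and 0.95 without SD replicate 6. None of 4 members passed, against 6 of 17846 genes (0.0336%). Ighm had an unadjusted p-value under 0.05, as did 5.99% of all genes. Igha, which reached the level through the SD group alone, is left out here, and its values are given without this test. With the adipocyte mean as a covariate, the differences were 0.38 for Ighm and -0.14 for Igkc. Between HFD-STZ and HFD mice at 24 weeks, 0 of 3 members and 0 of 18117 genes passed (0%), and 0 members had an unadjusted p-value under 0.05, against 5.59% of all genes. Ighm was lower by 0.72 and Igkc by 0.90 in HFD-STZ mice, with 95% intervals from -1.73 to 0.29 and from -3.21 to 1.42, and Igkc differed by -0.30 without HFD replicate 1 and by -0.27 without HFD replicate 4. With the adipocyte mean as a covariate, Ighm differed by -0.73 (limma unadjusted p = 0.0034) and Igkc by -0.91 (limma unadjusted p = 0.33). The smallest limma adjusted p-value of this Ighm difference in any setting was 0.35.

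Dietary reversal was compared with continued HFD in each model. Ighm was lower in HFD-DR than in HFD mice by 1.58 (SE 0.44, limma adjusted p = 0.47, exact permutation p = 0.0105), and in the STZ model its mean was lower after DR by 1.04 (SE 0.41, limma adjusted p = 0.62, exact permutation p = 0.0430). None of 4 members passed in the first comparison, against 2 of 18475 genes (0.0108%), and none of 3 in the second, against 15 of 17862 genes (0.084%). In both, Ighm was the 1 member with an unadjusted p-value under 0.05, against 6.72% and 6.48% of all genes. Igkc was lower by 1.41 in HFD-DR (SE 1.18) and by 1.02 in HFD-STZ-DR mice (SE 0.79), and Jchain by 1.18 (SE 0.83) and 0.53 (SE 0.71), with limma adjusted p-values of 0.91, 0.93, 0.86 and 0.96. Without HFD replicate 1, the Igkc difference in HFD-DR was -0.81, and without HFD replicate 4 it was -0.78. In the STZ model, the Igkc difference ran from -0.57 without HFD-STZ replicate 2 to -1.53 without HFD-STZ-DR replicate 1, and without the same samples that of Jchain was -0.16 and -1.01. For Jchain in HFD-DR, it ran from -0.69 without HFD replicate 4 to -1.67 without HFD-DR replicate 5.

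The adipocyte mean was lower after DR as well, at 11.59 in HFD-DR (range 9.88 to 13.12) and 10.64 in HFD-STZ-DR mice (range 8.60 to 11.73), against 12.79 and 12.80 in mice kept on HFD and HFD-STZ. With it as a covariate, Ighm differed by -0.71 between HFD-DR and HFD (limma unadjusted p = 0.0027, against 0.0024 without the covariate). Between HFD-STZ-DR and HFD-STZ, Ighm then differed by 0.15 (limma unadjusted p = 0.73, against 0.022). Igkc differed by 0.26 and 0.82 in these 2 comparisons (limma unadjusted p = 0.80 and 0.40). The sign of the Igkc difference thus turned in both models, and that of Ighm in the STZ model. In HFD-DR mice, 6 of 6 skeletal muscle markers had higher means than in HFD mice (list mean 12.54 against 10.03, ranges 9.77 to 15.65 and 7.51 to 15.32), 4 of them at an unadjusted p-value under 0.05. Macrophage markers had lower means there in 6 of 6 (11.29 against 11.85, ranges 11.08 to 11.62 and 10.997 to 12.72), 3 of them at such a p-value, and blood markers in 5 of 5 (10.07 against 10.68). In HFD-STZ-DR mice, 6 of 6 muscle markers had higher and 6 of 6 macrophage markers lower means than in HFD-STZ mice, and 0 of either reached such a p-value. The part of muscle and macrophages was not tested. With the blood covariate, Ighm differed by -1.46 and -1.07.

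The reversal groups were also set against SD mice of 24 weeks. Between HFD-DR and SD, 0 of 4 members and 0 of 18145 genes passed (0%), and Ighm means were 10.45 and 10.45, with a 95% interval of the difference from -0.72 to 0.73. Between HFD-STZ-DR and SD, 0 of 4 members and 0 of 17889 genes passed (0%), and Ighm differed by -0.18 (95% interval -0.97 to 0.61). Igkc differed by 0.03 and -0.48, with intervals of -1.85 to 1.90 and -2.17 to 1.21, and the latter ran from -0.07 without SD replicate 6 to -0.99 without HFD-STZ-DR replicate 1. In both comparisons 0 members had an unadjusted p-value under 0.05, against 5.14% and 9.16% of all genes. Both share the 8 SD samples of 24 weeks. A change of the DR effect with STZ was tested directly, and 0 of 4 members and 0 of 18161 genes passed (0%). It was 0.54 for Ighm (SE 0.63) and 0.39 for Igkc (SE 1.5), and 0 members, against 1.71% of all genes, had an unadjusted p-value under 0.05. With the adipocyte mean as a covariate, the change was 1.15 for Ighm (limma unadjusted p = 0.0035) and 1.47 for Igkc (limma unadjusted p = 0.24). The smallest limma adjusted p-value of the Ighm change in any setting was 0.97. Without the covariate, the Igkc change was -0.20 on leaving out HFD replicate 1, -0.24 without HFD replicate 4 and 0.20 without HFD-STZ replicate 7, all of 24 weeks.

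**Figure D3:**
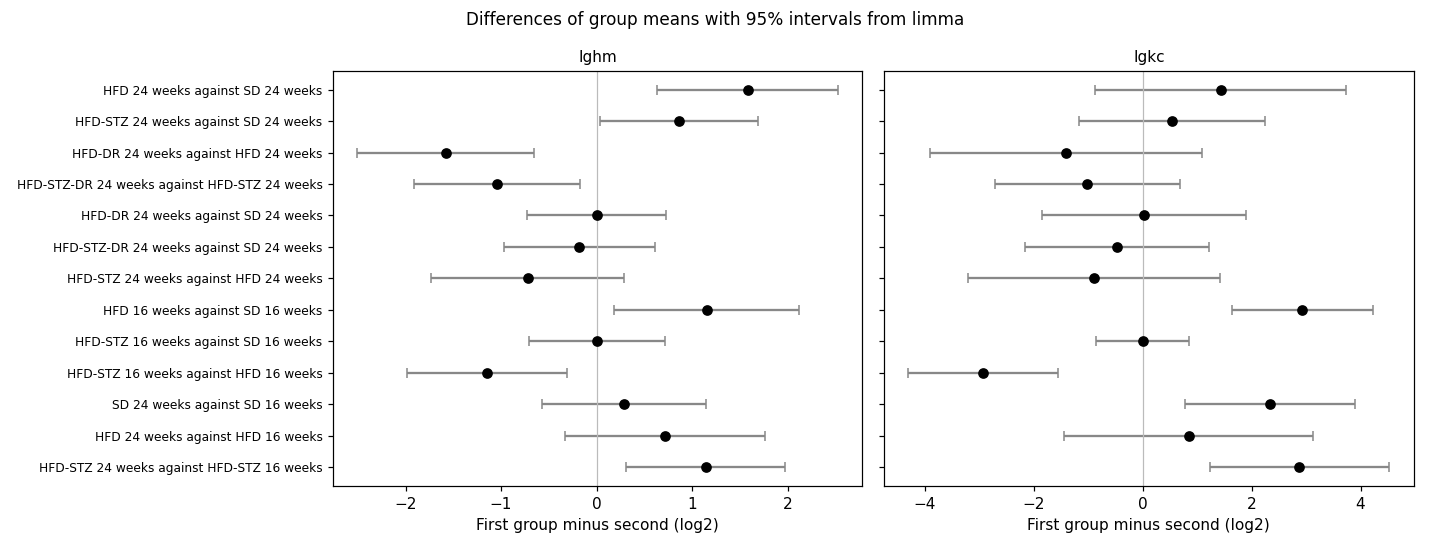
Differences of group means (log2) for Ighm (left) and Igkc (right) in 13 comparisons, with 95% intervals from limma, the first group named minus the second. For Ighm the points at 24 weeks go from 1.58 for HFD against SD to -1.58 for HFD-DR against HFD, and the widest intervals of Igkc are those with HFD mice of 24 weeks.

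Ages were compared within each diet. Between 16 and 24 weeks, Igkc was higher at the later age by 2.34 in SD mice (SE 0.73, limma adjusted p = 0.39, exact permutation p = 0.0179) and by 2.88 in HFD-STZ mice (SE 0.77, limma adjusted p = 0.28, exact permutation p = 0.00699). In HFD mice it was higher by 0.84 (SE 1.07, limma adjusted p = 0.95), or 0.25 without HFD replicate 1 of 24 weeks and 0.22 without replicate 4. Jchain was higher by 1.15 in SD (SE 0.49, limma adjusted p = 0.46) and 1.56 in HFD-STZ mice (SE 0.66, limma adjusted p = 0.37). Ighm was higher by 0.29 in SD (SE 0.40), 0.72 in HFD (SE 0.49) and 1.14 in HFD-STZ mice (SE 0.39), the last with a limma adjusted p-value of 0.30 and an exact permutation p = 0.0256. The difference in SD mice was 0.08 without SD replicate 5 of 24 weeks and 0.62 without SD replicate 2 of 16 weeks.

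Markers of other tissues had higher means in the older mice as well. In SD mice of 24 weeks, 6 of 6 adipocyte markers had higher means than at 16 weeks (list mean 11.98 against 10.16, ranges 10.25 to 12.94 and 8.22 to 11.99), as did 5 of 5 blood markers (9.90 against 7.60, ranges 7.01 to 11.06 and 6.72 to 8.79). All 6 adipocyte and all 5 blood markers had an unadjusted p-value under 0.05. Means were also higher for 6 of 6 muscle markers (11.66 against 9.43) and 2 of 2 lymph node stroma markers (6.44 against 5.04). In HFD-STZ mice, 6 of 6 adipocyte markers (12.80 against 11.43), 5 of 5 blood markers (9.74 against 8.80), 6 of 6 muscle markers (9.71 against 8.06) and 2 of 2 lymph node stroma markers (5.94 against 5.18) had higher means in the older mice. With the adipocyte covariate, Igkc differed by 1.80 in SD and 2.62 in HFD-STZ mice, and with the blood covariate by 3.10 and 2.61. Ighm in HFD-STZ mice differed by 0.51 and 1.05 with these covariates. The part of muscle and lymph node was not tested.

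No member passed in a comparison of ages. In SD mice, 0 of 4 members and 0 of 17788 genes passed (0%). Igkc and Ighd had an unadjusted p-value under 0.05, as did 10.5% of all genes. Igha, which reached the level through the older group alone, is left out here. In HFD mice, 0 of 4 members passed, against 12 of 18360 genes (0.0654%), and 0 members had an unadjusted p-value under 0.05, against 5.90% of all genes. In HFD-STZ mice, 0 of 3 members and 0 of 17963 genes passed (0%), with 2 members at an unadjusted p-value under 0.05, against 12.5% of all genes. The change of the HFD effect from 16 to 24 weeks was -1.5 for Igkc (SE 1.41) and 0.43 for Ighm (SE 0.68), and 0 of 4 members and 0 of 18087 genes passed (0%). For Ighm it ran from 0.10 to 0.68 on leaving out single samples. At an unadjusted p-value under 0.05 there were 0 members and 1.67% of all genes.

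Among the members without a value above 22, the delta chain gene Ighd had the narrowest spread. At 16 weeks, SD mice had 3.71, 4.17, 4.42, 4.64 and 5.01 and HFD-STZ mice 4.16, 4.88, 5.02, 5.46 and 5.50, and HFD mice ran from 3.98 to 6.47 (median 5.24). Medians of 24 weeks were 5.06 in SD, 5.21 in HFD, 5.08 in HFD-STZ, 5.07 in HFD-DR and 4.80 in HFD-STZ-DR mice. All groups overlapped. SD mice were higher at 24 than at 16 weeks by 0.61 (SE 0.25, limma adjusted p = 0.45). The order of the 8 group means held 7 steps, all of them smaller than the SD of both neighbours.

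The alpha chain gene Igha, the constant part of IgA, was low in most nerves and high in a few. The highest value, 9.79, was in HFD-DR replicate 5, followed by 7.39 in HFD replicate 4 of 24 weeks. In SD mice of 24 weeks, 3 samples had 6.36, 6.38 and 6.53 and the other 5 had 1.96 to 3.77. At 16 weeks, SD mice had 1.92, 2.29, 2.31, 2.34 and 2.38 and HFD-STZ mice 2.41, 2.47, 2.52, 2.99 and 3.47, while HFD mice ran from 2.19 to 5.52 (median 2.79). At 24 weeks, HFD mice ran from 2.12 to 7.39 (median 3.23), HFD-STZ from 1.88 to 3.87 (median 2.42), HFD-DR from 1.99 to 9.79 (median 3.67) and HFD-STZ-DR from 2.03 to 3.89 (median 3.18). No sample of the 3 STZ groups was above 3.89, and each of the other groups of 24 weeks held 1 sample or more above 6.

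Igha reached the level, and so entered the limma fit, in 7 of the 13 comparisons of groups, but in 4 of these only 1 of the group means did. Its differences are therefore given with exact permutation tests, which need no filter within a comparison. Igha is still a member only through a few high samples, most of them in SD, HFD and HFD-DR mice of 24 weeks. Comparisons with these groups reuse the values that chose the gene, so their p-values are a description and no support. Of these 13 tests, 2 gave an unadjusted p-value under 0.05, 1 with higher and 1 with lower means in HFD-STZ mice. At 16 weeks, all 5 HFD-STZ samples were above all 5 SD samples, with means of 2.77 and 2.25 (exact permutation p = 0.00794, the smallest that 5 against 5 samples allow). Groups did not overlap for 373 of 17879 genes in this comparison (2.09%), and both means were under the level. At 24 weeks, HFD-STZ mice had a lower mean than HFD mice, 2.58 against 3.93 (exact permutation p = 0.0365). Means of SD mice were 4.12 at 24 weeks, against 2.58 in HFD-STZ mice of that age (exact permutation p = 0.0735) and 2.25 in SD mice of 16 weeks (exact permutation p = 0.0583).

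The remaining members, Ighg2b and Igkv4-91, were nearly flat. Outside the sample with the values above 22, Ighg2b, the IgG2b chain, lay within 0.3 of its median of 5.77 in 50 of 52 samples. The exceptions were HFD replicate 6 at 16 weeks, with 8.28, and HFD replicate 4 at 16 weeks, with 6.60. Igkv4-91 lay within 0.3 of its median of 4.65 in 50 of 52 samples, and the exceptions were HFD replicate 7 at 24 weeks, with 6.82, and SD replicate 6 at 24 weeks, with 5.66. Both genes thus owed their mean to a level shared by almost every nerve. With the values above 22 set as missing, limma adjusted p-values of both genes were at least 0.69 in all 13 comparisons of groups. Of 13 exact permutation tests for each gene, 1 had an unadjusted p-value under 0.05, in both cases HFD-DR against HFD with 7 and 6 values. Igkv4-91 was 4.64 to 4.67 in HFD-DR mice and 4.67 to 6.82 in HFD mice (medians 4.65 and 4.69, exact permutation p = 0.00117), and Ighg2b was 5.73 to 5.82 and 5.78 to 5.96 (medians 5.75 and 5.80, exact permutation p = 0.0274). The 78 exact permutation tests of the 6 members share groups and samples and were not run over all genes. The number of them with an unadjusted p-value under 0.05 is therefore not given as a result.

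The sample with the values above 22 was high in further immunoglobulin genes. In HFD replicate 1 of 24 weeks, the lambda constant gene Iglc2 reached 7.73, against at most 4.61 in any other sample, and the kappa variable gene Igkv17-121 reached 12.43, against at most 2.40. Igkc was at 11.76 there, against 11.95 in the highest sample, and Ighm at 12.84, against 13.47.

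**Figure D4:**
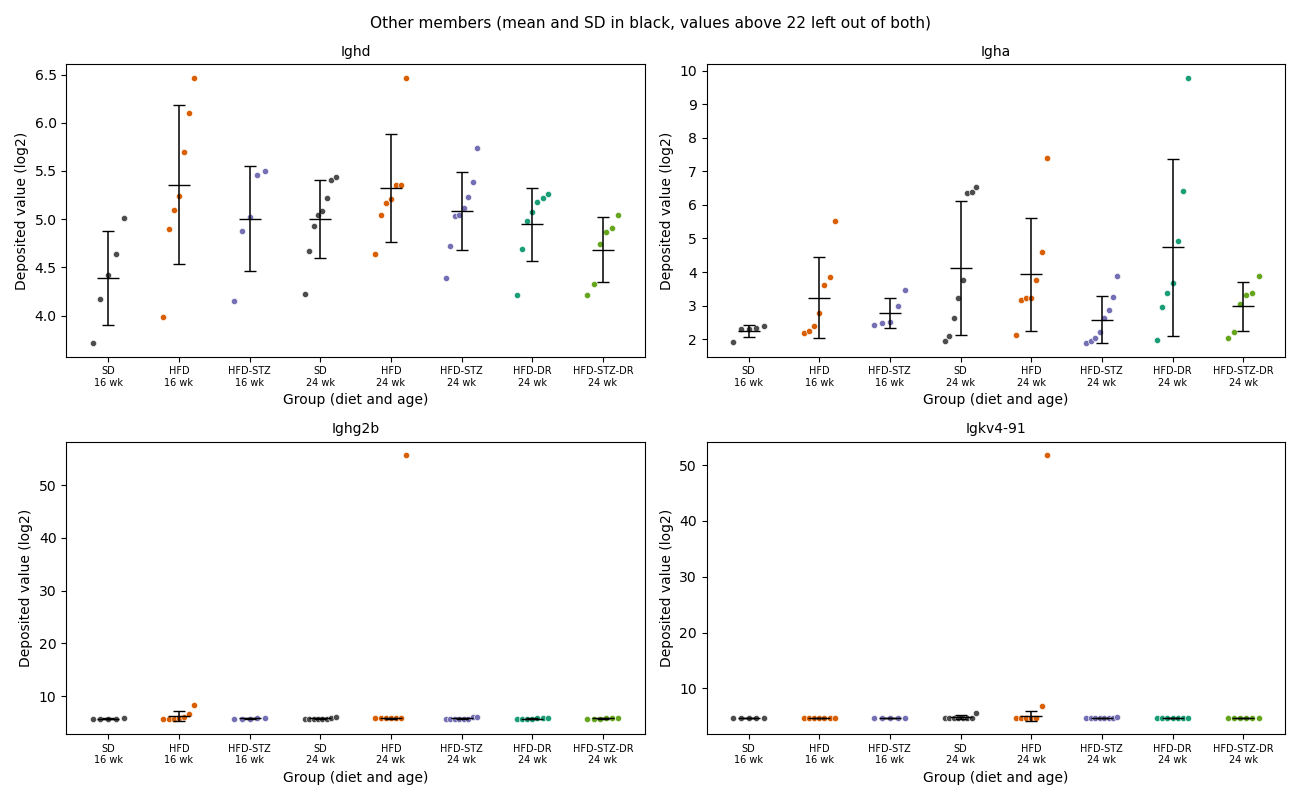
Deposited log2 values of Ighd, Igha, Ighg2b and Igkv4-91 in each of the 53 samples by group, with the mean and SD in black (values above 22 left out of both). Igha was high in single mice, up to 9.79, and Ighg2b and Igkv4-91 stayed near 5.77 and 4.65 apart from the values of 55.71 and 51.78 in 1 HFD mouse.

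Constant genes of other classes lay below the level. The IgG1 chain gene Ighg1 had a median of 1.58 but 10.02 in HFD replicate 6 of 16 weeks, the sample that was also high in Ighg2b. The IgG2c chain gene Ighg2c had a median of 2.84 and its highest value, 7.38, in HFD-STZ replicate 7 of 24 weeks, while Ighg3 stayed at or under 2.14. The lambda genes Iglc1 and Iglc3 stayed at or under 4.81 and 2.82, and Iglc4 was listed below 0 in every sample.

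Genes of the antibody pathway were counted in the lists described under processing, none of which had a gene past the threshold in any comparison. Between HFD and SD mice at 24 weeks, 11 of 17 plasma cell markers tested had higher means and 6 lower in HFD mice, with a median difference of 0.11 against 0.01 over all genes. Of these, 2 higher and 2 lower markers had an unadjusted p-value under 0.05, against 9.05% of all genes, and the secretory factor Xbp1 was 1 of the lower (-0.21). Of 10 B cell markers tested, 9 had higher means and 1 lower (median 0.42), and 3 higher ones had such a p-value. Of the genes for antibody receptors and transport, among them the Fc receptor Fcgr3 and the neonatal receptor Fcgrt, 6 of 7 had higher means (median 0.25). Of the survival and homing signals, such as Cxcl12 and the B cell survival factor Tnfsf13b, 5 of 7 did (median 0.10). Between HFD-DR and HFD mice, 15 of 17 plasma cell markers had lower means (median -0.16), as did 10 of 10 B cell markers (median -0.30). In the STZ model after DR, this held for 14 of 17 plasma cell (median -0.09) and 5 of 8 B cell markers (median -0.17). In HFD-STZ mice of 24 weeks, 8 plasma cell markers had higher and 9 lower means than in SD mice (median -0.02), and 4 B cell markers had higher and 4 lower means (median -0.03). At 16 weeks, 10 of 10 B cell markers had higher means in HFD than in SD mice (median 0.40), against 8 of 17 plasma cell markers (median -0.02 against 0.01 over all genes).

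Markers of other cells were counted for the same HFD and SD samples of 24 weeks. Higher means in HFD were found for 4 of 4 T cell (median 0.31), 5 of 6 adipocyte (median 0.94), 5 of 5 blood (median 0.81) and 6 of 6 macrophage markers (median 0.29). Lower means were found for 6 of 6 skeletal muscle (median -1.72), 5 of 6 Schwann cell (median -0.11) and 2 of 2 lymph node stroma markers (median -0.38). Their part in the differences of the immunoglobulin genes was not tested beyond the adipocyte and blood covariates.

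Variable genes were mostly near a low constant value with single high samples. Leaving out Igkv4-91, 345 variable genes were measured, and 82 exceeded their own median by over 1 in some sample, 34 of them in 1 sample only. A value over 2 above the median was found for 13 genes, 6 of them in 1 sample only. The highest were Igkv12-89 at 18.78 in SD replicate 6 of 24 weeks (median 0.84), Igkv4-70 at 14.27 in HFD replicate 1 of 16 weeks (median 0.54) and Igkv17-121. Igkc was at 9.63 and 8.99 in the first 2 of these samples, 9.15 and 5.28 below the variable gene, and 3 of the 13 genes had their highest value above Igkc in the same sample. The transformation behind the deposited values is not given in the sources used here, and whether these single values are measured levels was not tested. Among heavy chain genes, Ighv1-64 reached 9.01 in HFD-DR replicate 5 and 7.48 in HFD replicate 1 of 24 weeks, against a median of 0.32. The genes with the highest means without such peaks, such as Ighv1-25 (mean 2.42) and Igkv19-93 (mean 2.47), reached 4.01 and 4.11 at most.

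Samples with such a variable gene were those rich in Igkc. At least 1 variable gene over 2 above its median was found in 13 of 53 samples, and 12 of these were among the 13 samples with an Igkc value over 8, a level set after the values were seen. By group, these were 0 of 5 SD, 2 of 7 HFD and 0 of 5 HFD-STZ samples at 16 weeks. At 24 weeks, they were 2 of 8 SD, 3 of 7 HFD, 3 of 8 HFD-STZ, 2 of 7 HFD-DR and 1 of 6 HFD-STZ-DR samples. Every one of the 5 groups of 24 weeks thus held at least 1 such sample. The genes were unevenly shared, since Igkv14-126 exceeded its median by over 2 in 8 samples and Ighv11-2 in 5, whereas 6 of the 13 genes did so in 1 sample only.

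**Figure D5:**
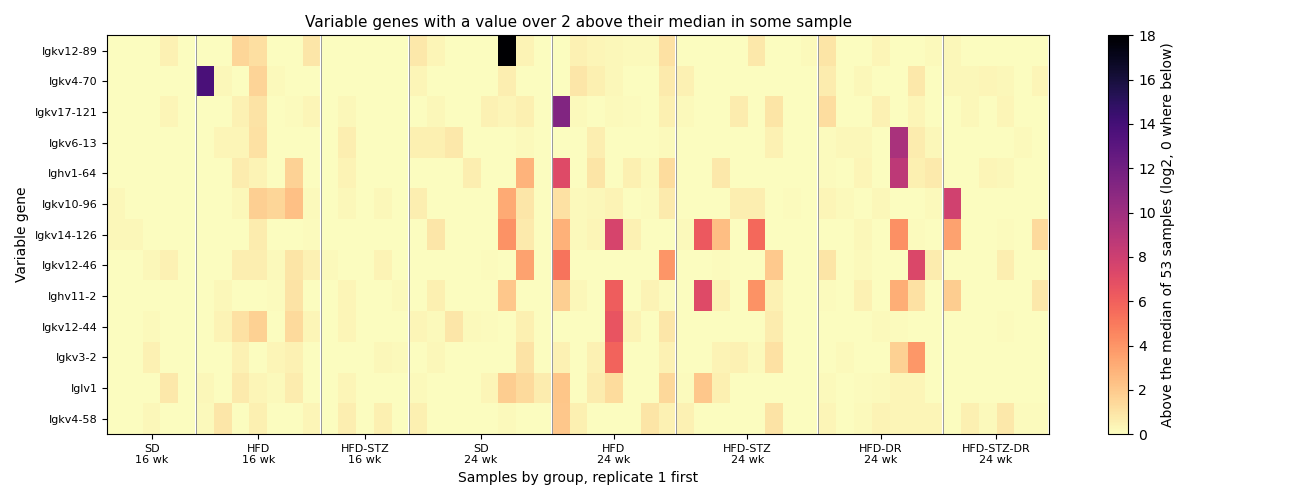
Heat map of the 13 variable genes with a value over 2 above their median in some sample (rows) in all 53 samples (columns, by group), coloured by log2 units above the gene's median, with 0 where below. The darkest cell is Igkv12-89 in SD replicate 6 of 24 weeks, and no SD or HFD-STZ sample of 16 weeks holds a value over 2.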

How the data were processed

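Reads of sciatic nerve RNA were cleaned by the authors, aligned with HISAT2 to mm10 (GRCm38) and summarised over genes by featureCounts. FPKM values and DESeq2 are described in the study's methods, but the deposited files hold log2 values, whose normalization is not given in the sources used here. limma 3.58.1 in R 4.3.3 was therefore used. Each comparison used the samples of its groups only and genes with a mean at or over 3.32 there, with a variance prior following mean expression and Benjamini-Hochberg adjustment over all genes tested. Any of the 25 genes with a value above 22 stayed out of the fits. The 2 interactions used 4 groups each. Exact permutation tests, 2-sided and unadjusted, were run for the 6 members and Jchain, with numpy 2.4.6 in Python 3.11.15. The fit was tested on simulated data. The labels do not say that each sample is a separate mouse, so p-values measure the spread between these samples, which may be technical. Read depth is not given per sample.

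Members and lists were chosen with earlier results of these data known. Named genes were all constant genes, the variable genes highest in mean or SD, the 3 genes on each side of the level, the 10 genes most like Igkc by Pearson correlation, and the marker lists of plasma cells, B cells, T cells, antibody receptors, survival signals, adipocytes, muscle, Schwann cells, blood, lymph node stroma and macrophages. Genes were placed with GENCODE M21. Alternatives were no filter, the level in every sample, all 8 groups in 1 fit, 8 stretches of neighbouring sample numbers in the titles as a block (no label calls them batches), robust empirical Bayes, no trend, median centring, genes above 22 kept, each sample left out, and adipocyte or blood markers as a covariate. Setting values above 22 as missing was added after seeing the data. The value of 1 marker gene is not reported here.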

Additional observations from a re-analysis of the deposited data

Results flagged for a closer look

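In 56 groups of values (6 members and Jchain in 8 groups), 10 values stood apart from the others of their group by Dixon's criterion, where chance gives about 1 in 20 groups. For Igkc this was HFD-STZ replicate 2 of 16 weeks, at 5.95 against 4.19 for the next sample. For Ighd it was HFD replicate 7 of 24 weeks, at 6.47 against 5.35, and for Jchain HFD-STZ-DR replicate 1, at 7.35 against 4.84. For Igha it was SD replicate 5 of 16 weeks, the lowest at 1.92 against 2.29. For Ighg2b, HFD replicate 1 of 24 weeks was at 55.71, HFD replicate 6 of 16 weeks at 8.28 and SD replicate 1 of 16 weeks at 5.87 against 5.73. For Igkv4-91, HFD replicate 1 of 24 weeks was at 51.78, SD replicate 6 of 24 weeks at 5.66 and HFD-STZ replicate 3 of 24 weeks at 4.84 against 4.68.

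Among the variable genes with the largest SD, which no comparison used, 5 of 6 had their highest value in a sample outside the SD groups, above every SD sample. The SD groups held only 5 and 8 of the 53 samples, so most samples lay outside them. A single peak also raises the spread by which these genes were chosen. Igkv4-70 reached 14.27 in HFD replicate 1 of 16 weeks against 1.15 in SD mice. Igkv17-121 reached 12.43 in HFD replicate 1 of 24 weeks against 1.72. Igkv14-126 reached 9.10 in HFD replicate 4 of 24 weeks against 5.67, Ighv1-64 reached 9.01 in HFD-DR replicate 5 against 3.14, and Ighv11-2 reached 7.88 in HFD-STZ replicate 2 of 24 weeks against 2.87. The sixth, Igkv12-89, had its peak of 18.78 in an SD mouse.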

How the results depend on the processing

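No immunoglobulin member passed in any of 412 fits over 15 comparisons and 11 settings besides leaving out each sample, and the smallest adjusted p-value of the 39 differences fitted was 0.0575. With the adipocyte covariate, Igkc changed sign to -0.14 (HFD-STZ against SD, 24 weeks), 0.26 (HFD-DR against HFD), 0.82 (HFD-STZ-DR against HFD-STZ), 0.69 (HFD-STZ-DR against SD) and 0.29 (HFD-STZ against SD, 16 weeks), Ighm to 0.15 (HFD-STZ-DR against HFD-STZ) and 0.38 (HFD-STZ-DR against SD), and Jchain to 0.65 (HFD-STZ-DR against HFD-STZ). Ighm between HFD-STZ and SD mice of 16 weeks, near 0 throughout, changed sign to -0.082 with the sample number stretches as a block, -0.019 with median centring, -0.037 with the adipocyte and -0.079 with the blood covariate. The cause was not tested. Leaving out single samples turned or moved by over 1.5 times 19 of the 39 differences, and it turned 6: Ighm from -0.15 to 0.21 (HFD-DR against SD), -0.17 to 0.33 (HFD-STZ against SD, 16 weeks) and -0.42 to 0.024 (HFD-STZ-DR against SD), and Igkc from -0.54 to 0.44 (HFD-DR against SD), -0.39 to 0.17 (HFD-STZ against SD, 16 weeks) and -0.24 to 0.95 (change of the DR effect with STZ). No paired analysis was possible because the labels number no mice across groups. Depth per gene is unknown, and rows near a constant low value cannot show small changes.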

Other observations

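A heavy and a kappa variable gene below the level were high in the same samples. Ighv11-2 and Igkv14-126 are known as the heavy and light chain genes of B-1 cells whose antibody binds phosphatidylcholine, a pairing looked at after the values were seen. Over the 53 samples their r was 0.93, or 0.93 within groups, and it was 0.60 over the other 47 samples. The 6 samples highest in each gene were the same 6 samples. Ighv11-2 and Igkv14-126 were at 7.88 and 7.89 in HFD-STZ replicate 2, 6.93 and 9.10 in HFD replicate 4, and 4.88 and 7.19 in HFD-STZ replicate 5, all of 24 weeks. They were at 3.86 and 5.75 in HFD-DR replicate 5, 2.87 and 5.67 in SD replicate 6 of 24 weeks, and 2.62 and 5.03 in HFD-STZ-DR replicate 1, against medians of 0.78 and 1.55. These samples came from all 5 groups of 24 weeks and from 0 groups of 16 weeks, and their Igkc values ran from 8.86 to 11.95.

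Igkv4-91 is likewise known as a partner of Ighv12-3, a gene outside the naming rule that was chosen after its values were seen. HFD replicate 7 and SD replicate 6 of 24 weeks, the highest for Igkv4-91 below 22, were also the highest for Ighv12-3, at 0.27 and 0.23 against a median of -0.65. Over 52 samples r was 0.81, but it was 0.03 over the 43 samples outside the 6 highest of either gene. HFD replicate 1 of 24 weeks, with Igkv4-91 at 51.78, was not among the 7 highest for Ighv12-3.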
